A study of Mus musculus with 12 samples.

Results

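The genes Pdpn, Thy1, Reln, Mmrn1, Fgl2, Klhl4 and Maf were followed in RNA of lymphatic endothelial cells (LECs) sorted from mouse lung. These 7 of the 52636 genes in the count tables were chosen by symbol, as the rows whose Ensembl identifiers carry these names in GENCODE M21. All 7 passed the filter on low counts, among 21440 genes tested. They are grouped as surface and secreted identity genes, although Klhl4 and Maf encode proteins that work inside the cell.

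The study exposed Prox1-EGFP mice, whose LECs carry green fluorescent protein under control of the lymphatic gene Prox1, to whole-body cigarette smoke (CS) or to room air (RA) from 6 weeks of age. Acute exposure lasted 8 weeks and chronic exposure at least 24 weeks, and the room air controls were matched for age. Live cells negative for EPCAM and hematopoietic lineage markers, and positive for CD31 and GFP, were sorted for RNA, so the gate itself rests on the Prox1 reporter. There were 2 acute RA, 2 acute CS, 3 chronic RA and 5 chronic CS libraries, with 1 female (F) library per group and the others male (M, or M1 to M4). Each acute library pooled the cells of 2 to 5 mice, while each chronic library came from 1 mouse, so that pooling cannot be told apart from exposure time in any comparison across time points. In the labels the acute time is entered under age and the later mice are only said to be aged. The study's methods give both as lengths of exposure, and these are used here. The deepest library was acute RA F with 56998590 counts, and the shallowest was chronic CS F with 18821438. Levels are given in CPM, the deposited counts scaled to a common library size with TMM factors, which correct for differences in composition between libraries.

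Lymphatic endothelium lines the vessels that drain fluid and carry immune cells out of the lung, and Prox1 sets and maintains its identity. Podoplanin (Pdpn) is a mucin-type surface glycoprotein that binds the platelet receptor CLEC-2 and helps to keep blood and lymph vessels apart. Thy1 is a glycolipid-anchored surface protein that integrins of leukocytes can bind. Reelin (Reln) and multimerin 1 (Mmrn1) are large secreted glycoproteins, the former a ligand of lipoprotein receptors and the latter a binding partner of coagulation factor V. Fgl2 is a member of the fibrinogen family with a secreted form that binds inhibitory Fc receptors and a membrane form that can cleave prothrombin. Klhl4 belongs to the kelch-like family, members of which serve as adaptors of cullin 3 ubiquitin ligases. Maf is a basic leucine zipper transcription factor that acts in lymphatic endothelium and in several immune lineages.

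The genes lie on 6 chromosomes of GRCm38. Pdpn (ENSMUSG00000028583) spans chr4:143267431-143299564, Thy1 (ENSMUSG00000032011) chr9:44043384-44048579 and Mmrn1 (ENSMUSG00000054641) chr6:60924976-60989378. Klhl4 (ENSMUSG00000025597) spans chrX:114474333-114560829 and Maf (ENSMUSG00000055435) chr8:115682942-115707794. Fgl2 (ENSMUSG00000039899) at chr5:21372642-21378374 and Reln (ENSMUSG00000042453) at chr5:21884454-22344702 are neighbours on one chromosome, 506079 bases apart with 13 annotated genes between them. All 7 are protein-coding. Fgl2 lies within the span of Ccdc146 on the opposite strand without shared exon bases. Reln shares 246 exon bases with the antisense gene Gm10475, which averaged 56.3 counts per library against 49451.3 for Reln, and Maf shares 440 with Gm15655, which had a mean count of 0. The strand setting of the counting was not stated, so reads in these shared bases cannot be assigned to one strand.

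RefSeq promoter sequence of GRCm38.p6 was at hand for 5 of the 7 genes (Pdpn, Reln, Mmrn1, Fgl2 and Klhl4). The 250 bases before the annotated start are shown for Pdpn and Reln, which share an E-box, and for Klhl4, the gene with one of the widest spreads among smoke-exposed mice. They are written 5′ to 3′ along each gene's strand, with capitals for matches to the motifs named after them. The positions are chr4:143299565-143299814 on the minus strand for Pdpn, chr5:22344706-22344955 on the minus strand for Reln and chrX:114474083-114474332 on the plus strand for Klhl4.
Pdpn: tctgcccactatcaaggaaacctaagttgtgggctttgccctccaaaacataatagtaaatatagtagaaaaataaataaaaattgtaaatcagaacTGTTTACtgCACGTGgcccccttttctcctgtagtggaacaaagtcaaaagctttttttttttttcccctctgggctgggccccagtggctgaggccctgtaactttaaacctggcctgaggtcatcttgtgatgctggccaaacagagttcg
Reln: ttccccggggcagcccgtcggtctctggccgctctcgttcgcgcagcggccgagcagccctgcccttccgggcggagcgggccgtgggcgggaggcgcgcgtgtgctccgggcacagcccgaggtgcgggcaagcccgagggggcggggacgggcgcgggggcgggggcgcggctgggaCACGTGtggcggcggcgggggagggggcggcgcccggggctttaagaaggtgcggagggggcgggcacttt
Klhl4: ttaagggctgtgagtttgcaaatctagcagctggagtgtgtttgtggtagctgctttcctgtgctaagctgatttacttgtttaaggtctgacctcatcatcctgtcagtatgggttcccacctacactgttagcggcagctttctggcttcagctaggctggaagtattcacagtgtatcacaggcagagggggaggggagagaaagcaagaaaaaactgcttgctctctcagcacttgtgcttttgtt
The 4 motifs were searched on both strands.

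The E-box CACGTG, a palindrome counted once, was found 144 bases before the start of Pdpn and 71 bases before that of Reln, and was present in 6.0% of 27025 promoters of the same length. A forkhead element (TGTTTAC, 3.1% of promoters) began 153 bases before the start of Pdpn and did not overlap the E-box. A SOX element (AACAAT, 9.6% of promoters) was found in the Mmrn1 window, and an AP-1 element (TGANTCA, a palindrome, 6.9% of promoters) 16 bases before the RefSeq start of Fgl2. The GENCODE start of Fgl2 lies 31 bases further upstream, so that this match is inside the transcribed region by that annotation. For Mmrn1 the RefSeq start lies 19341 bases inside the GENCODE gene, and its window is not shown. The Klhl4 window held none of the 4 motifs. Base composition differed widely, with 80.0% GC and 37 CpG dinucleotides in the Reln window against 43.2% and 2 for Pdpn and 47.6% and 1 for Klhl4, where the median over all promoters was 52.0% GC. These matches describe sequence only, and no binding was measured.

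The sorted cells carried the lymphatic genes at high levels in room air. On a scale per exon length (FPKM), which allows genes to be compared, Mmrn1 had a mean of 1572 FPKM over the 5 room air libraries and ranked 10th of 21404 genes. Prox1 had 253 FPKM (rank 124), Fgl2 330 FPKM (rank 84), Pdpn 118 FPKM (rank 361) and Klhl4 76.9 FPKM (rank 631). Reln, whose exons span 23738 bases, had 54.0 FPKM (rank 974), Thy1 47.3 FPKM (rank 1139) and Maf 29.6 FPKM (rank 1974). All 7 genes were therefore in the upper part of the expressed range, with Maf above 90.78% of genes. Prox1 was counted at 2239 and 2476 CPM in acute RA, 1836 to 2111 CPM in chronic RA and 1814 to 2322 CPM in chronic CS, but at 1042 and 1262 CPM in acute CS.

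**Figure D1:**
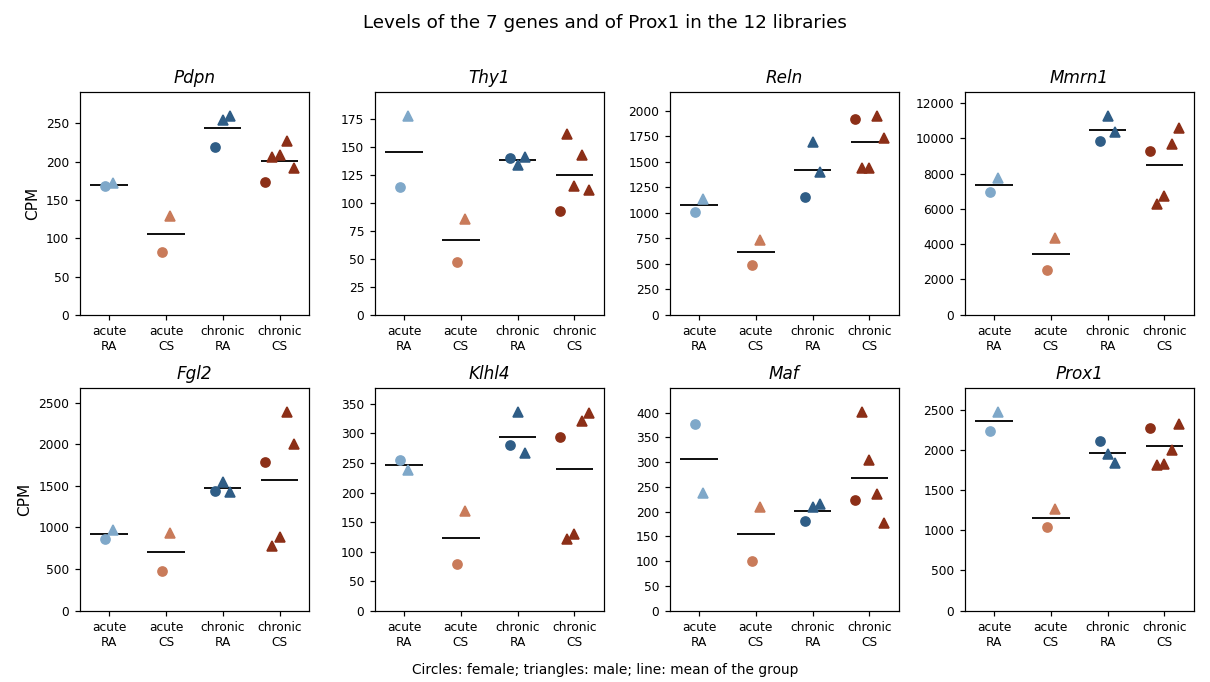
Levels in CPM (vertical axes, each starting at 0) of the 7 genes and of Prox1 in the 12 libraries, by group; circles are female and triangles male libraries, and lines are group means. Both acute CS libraries lie below both acute RA libraries for Pdpn, Thy1, Reln, Mmrn1, Klhl4, Maf and Prox1, whereas the ranges of chronic CS and chronic RA overlap in every panel.

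Acute smoke exposure was compared with acute room air first. Every one of the 7 genes had a lower fitted level in acute CS, with log2 fold changes from -1.13 to -0.38 and a median of -1.0, where the median over all genes tested was 0.04. None passed the adjusted threshold of 0.05 in edgeR's quasi-likelihood test, in which 3.47% of all genes did. At an unadjusted p under 0.05 there were 5 (Pdpn, Thy1, Reln, Mmrn1 and Maf), all lower, against 5.0% of all genes lower at that limit. In 6 of the 7 the acute CS libraries lay wholly below the acute RA libraries, as did 22.5% of all genes, and Fgl2 was the exception. In bulk RNA, fewer LECs in a sorted sample and less of a transcript per LEC cannot be told apart.

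Among the surface genes, Pdpn was counted at 168 CPM in the female and 172 CPM in the male acute RA library. In acute CS it was at 82.1 CPM in the female and 129 CPM in the male library. The groups did not overlap, and the fitted log2 fold change was -0.69 (95% interval -1.12 to -0.26, edgeR adjusted p = 0.0909). Thy1 was at 114 and 178 CPM in the female and male acute RA libraries and at 47.5 and 86 CPM in those of acute CS. The 2 acute RA libraries of Thy1 differed from each other by more than those of Pdpn did, with coefficients of variation of 30.6% and 1.71%. Its log2 fold change was -1.13 (95% interval -1.82 to -0.44, edgeR adjusted p = 0.081).

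Among the secreted genes, Reln was at 1012 CPM in the female and 1139 CPM in the male acute RA library, and at 491 and 733 CPM in those of acute CS. Both smoke libraries were below both controls, with a log2 fold change of -0.81 (95% interval -1.33 to -0.30, edgeR adjusted p = 0.0934). Mmrn1 was at 6937 and 7741 CPM in the female and male acute RA libraries and at 2562 and 4375 CPM in those of acute CS. Its acute groups did not overlap, and it had the smallest adjusted p of the 7 genes (log2 fold change -1.08, 95% interval -1.69 to -0.47, edgeR adjusted p = 0.0617). Fgl2 stood at 867 and 965 CPM in acute RA and at 472 and 934 CPM in acute CS, female before male. The male acute CS library thus lay between the 2 controls, and only the female library was lower (log2 fold change -0.38, 95% interval -1.44 to 0.67, edgeR adjusted p = 0.824).

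Of the intracellular genes, Klhl4 was at 256 and 238 CPM in the female and male acute RA libraries and at 78.5 and 168 CPM in those of acute CS, a log2 fold change of -1.0 (95% interval -2.10 to 0.09, edgeR adjusted p = 0.376). Maf was at 378 and 237 CPM in acute RA and at 99.5 and 208 CPM in acute CS, again female before male. Its male libraries were close together (a CS to RA ratio of 0.879) and its female libraries far apart (0.264), for a log2 fold change of -1.0 (95% interval -1.87 to -0.12, edgeR adjusted p = 0.243). In all 7 genes the ratio was lower in females than in males, from 0.264 to 0.544 in the former and from 0.484 to 0.967 in the latter. It was also lower in females for Prox1 (0.465 against 0.51). With 1 library per sex and group there was no test, and the share of all genes with this order was not counted.

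With DESeq2, which called 2.88% of genes lower, Pdpn, Reln, Mmrn1 and Thy1 passed the limit (adjusted p = 0.0114, 0.0105, 0.00252 and 0.00711). The same 4 passed in edgeR without acute CS M (adjusted p = 0.0133, 0.0427, 0.022 and 0.0301), and none without acute CS F. Each of these fits leaves 1 acute library in an arm, which is assumed to vary like the other groups. Over all genes 745 were called with every library, 858 without acute CS M, 175 without acute CS F, 79 without acute RA F and 3 without acute RA M, so that the background moved with single libraries as well. Exact two-sided permutation of the libraries cannot give p below 0.333 for 2 against 2, and 6 of the 7 genes reached that value.

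**Figure D2:**
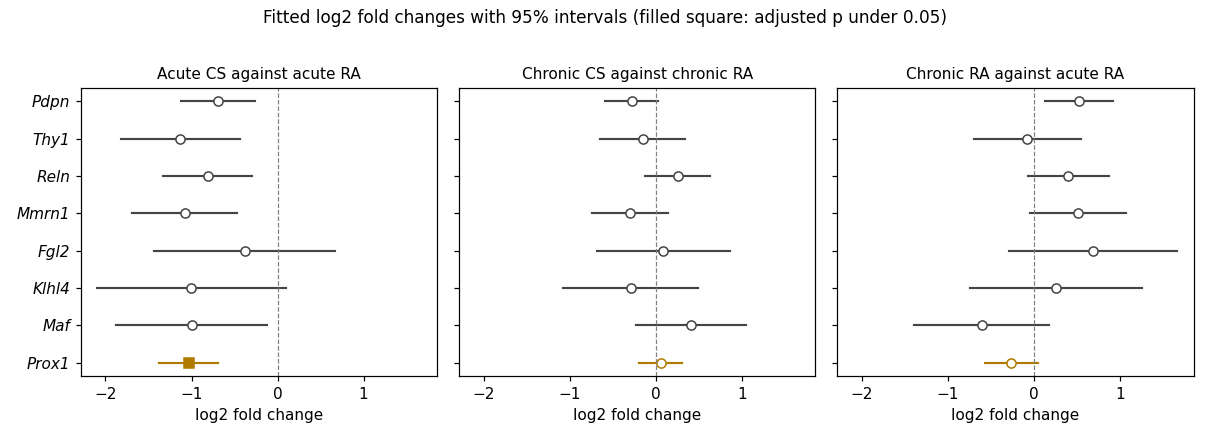
Fitted log2 fold changes (horizontal axes) of the 7 genes and of Prox1 with 95% intervals, in 3 comparisons; filled squares mark an edgeR adjusted p under 0.05. In the acute comparison all 7 genes lie left of 0 and only Prox1 passes the limit, and in the other comparisons no gene does.

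Prox1 itself was lower in acute CS (log2 fold change -1.03, edgeR adjusted p = 0.00797). The 7 genes were also expressed relative to Prox1 in the same library. Pdpn amounted to 6.94% and 7.49% of the Prox1 count in acute RA and to 7.88% and 10.2% in acute CS. For Reln the shares were 45.2% and 46.0% in acute RA and 47.1% and 58.1% in acute CS, and for Fgl2 38.7% and 39.0% against 45.3% and 74.0%. These 3 genes were thus above their controls relative to Prox1, as were 73.5% of all genes, while Mmrn1, Thy1, Klhl4 and Maf overlapped. When libraries were scaled to Prox1 in the fit, the median over all genes moved from 0.04 to 1.08 and 8241 of all genes were called. The changes of the 7 genes then ran from -0.11 for Thy1 to 0.62 for Fgl2, all below that median, and none was called.

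The other lymphatic identity genes were read from a list of 14. In acute CS 5 of them fell (Prox1, Flt4, Nrp2, Itga9 and Tbx1), 1 rose (Gata2) and 8 did not pass, with a median log2 fold change of -0.56. Flt4, the receptor for the lymphatic growth factor VEGF-C, was at 2716 to 3179 CPM in acute RA and 1159 to 1588 CPM in acute CS (log2 fold change -1.10, edgeR adjusted p = 0.0204). Nrp2, a co-receptor of the same ligand, changed by -1.42 (adjusted p = 0.0057 in edgeR) and Itga9, an integrin of lymphatic valves, by -1.58 (edgeR adjusted p = 0.00824). The transcription factor genes Tbx1 and Gata2 changed by -1.02 and 1.29 (edgeR adjusted p = 0.0457 and 0.00897). The summed level of the 14 genes was 10260 to 11432 CPM in acute RA and 5168 to 6987 CPM in acute CS, and 9866 to 13138 CPM over the chronic libraries.

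Markers of several cell types outside the lymphatic lineage were higher in the same 2 libraries. Of 10 blood endothelial markers 8 rose in acute CS, and their summed level was 2946 and 3768 CPM in acute RA against 7129 and 9002 CPM in acute CS. Vwf was at 39.0 to 53.1 CPM in acute RA and 1075 to 1829 CPM in acute CS, whereas Plvap changed by 0.14 (edgeR adjusted p = 0.86). All 5 pan-leukocyte markers rose, from sums of 74.5 and 86.9 CPM to 990 and 1329 CPM, Ptprc and Coro1a among them. Of the 6 mural and 7 fibroblast markers 3 and 4 rose, Acta2, Myh11 and Col1a1 among them. Of the markers of B cells, alveolar type 2 epithelium, epithelium in general and erythroid cells none was called in acute CS. The 5 B cell markers summed to 5.56 and 11 CPM in acute RA and to 22.7 and 137 CPM in acute CS, with Cd79a at most 40.6 and Cd79b at most 29.3 CPM. The 5 type 2 markers summed to 691 and 998 CPM in acute RA, and to 185 CPM in the male and 5994 CPM in the female acute CS library, with Sftpc at 128 and 4139 CPM and Sftpb at 17.5 and 698 CPM in the same order. The 5 pan-epithelial markers were at 16.5 and 30.8 CPM in acute RA against 12.8 CPM in the male and 183 CPM in the female acute CS library, and the 5 erythroid markers at 37.7 and 69.9 CPM against 10.6 CPM in the female and 697 CPM in the male. Epcam and Cdh1 were at most 16.1 and 49.7 CPM and Hba-a1 and Hba-a2 at most 259 and 33.2 CPM in acute CS. The last 3 lists thus lay on both sides of their controls. The part of any of these cells in the lower levels of the 7 genes was not tested.

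Each gene is set here beside the cell types known to express it elsewhere. For Pdpn these are alveolar type 1 epithelium, fibroblasts and mesothelium. The 6 type 1 markers summed to 429 and 432 CPM in acute RA and to 362 and 1317 CPM in acute CS, with Hopx the one that rose and Ager at 25 and 424 CPM in the 2 acute CS libraries. The fibroblast sum was 130 and 178 CPM in acute RA against 467 and 851 CPM in acute CS, with Col1a1 and Col1a2 at most 140 CPM in any library. The 5 mesothelial markers summed to at most 21 CPM in any library, with Msln at 0 in 6 and Wt1 at 0 in 8 of the 12. No mesothelial marker was called, and the part of these cells in the level of Pdpn was not tested.

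For Reln, the mural markers summed to 22.5 and 43.0 CPM in acute RA and to 243 and 247 CPM in acute CS. For Mmrn1, the 6 platelet markers summed to 12.3 and 15.5 CPM in acute RA, 17.3 and 52.7 CPM in acute CS and 16.3 to 94.2 CPM in the chronic groups, and none was called. Pf4 and Ppbp were at most 22.4 CPM in any library. Fgl2 and Maf are also made by macrophages, and the 9 macrophage markers summed to 1064 and 1175 CPM in acute RA and to 4021 and 6598 CPM in acute CS, with Chil3 at 1314 and 1355 CPM and Marco at 77.6 and 89.9 CPM in the latter. Of these 9, 1 rose (Cd68) and 1 fell (Mrc1). Mrc1 alone was at 632 and 663 CPM in acute RA, the larger part of the sum there, and at 265 and 411 CPM in acute CS. Thy1 is a marker of mouse T cells as well, and the 8 T cell markers summed to 27.7 and 28.6 CPM in acute RA against 151 and 361 CPM in acute CS, with 5 called higher, Cd3e and Cd3d included. Cd4 was at 0 in 2 and Cd8a in 4 libraries. What macrophages and T cells contributed to the levels of Fgl2, Maf and Thy1 was not tested.

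**Figure D3:**
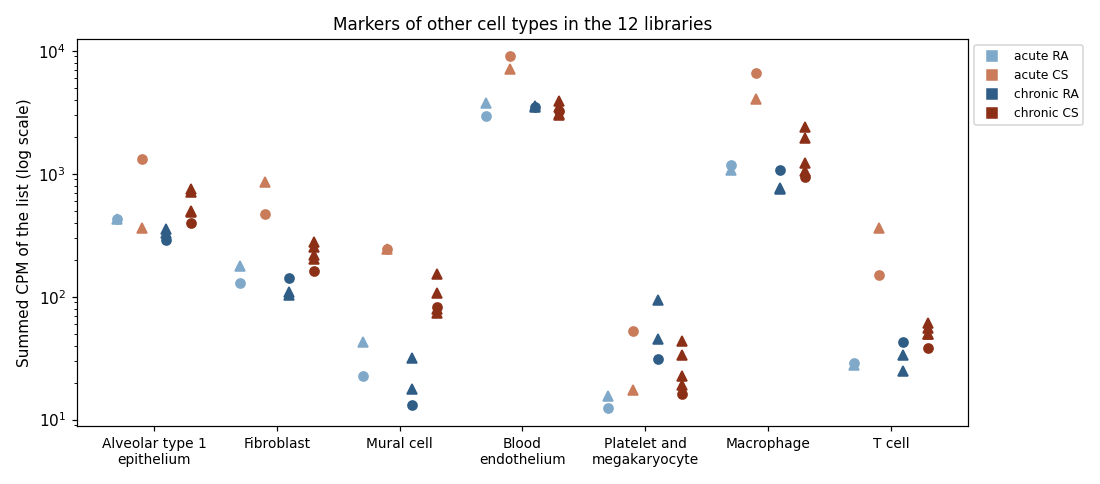
Summed CPM (vertical axis, log scale) of 7 marker lists in the 12 libraries, by group; circles are female and triangles male libraries. The 2 acute CS libraries lie above both acute RA libraries for fibroblast, mural, blood endothelial, platelet, macrophage and T cell markers, and on both sides of them for alveolar type 1 markers.

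Chronic exposure was compared next. No gene of the 7 was called between chronic CS and chronic RA, and neither was any gene tested (0.0%), although 2341 genes had an unadjusted p under 0.05 and DESeq2 called 524. None of the 7 was under the unadjusted limit in edgeR, and DESeq2 called none of them. Of the 7, 4 had a lower and 3 a higher fitted level, the median log2 fold change was -0.15 against 0.01 over all genes, and the groups overlapped in all 7, where 9.41% of genes had groups that did not. With 5 libraries against 3 the exact permutation test can reach 0.0357, and the smallest of the 7 was 0.0714 for Pdpn.

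Pdpn was at 220, 254 and 259 CPM in chronic RA and at 174 to 227 CPM, median 206 CPM, in chronic CS. In chronic CS 4 of 5 libraries were below all controls, and M3 lay among them, for a log2 fold change of -0.28 (95% interval -0.59 to 0.03, edgeR adjusted p = 0.491). Thy1 stayed within 134 to 142 CPM in chronic RA and ranged from 92.8 to 162 CPM in chronic CS, on both sides of the controls (log2 fold change -0.15, 95% interval -0.65 to 0.34). Reln was at 1158, 1404 and 1698 CPM in chronic RA and at 1435, 1444, 1733, 1924 and 1948 CPM in chronic CS. Its higher mean in chronic CS was within the spread (log2 fold change 0.26, 95% interval -0.12 to 0.63, edgeR adjusted p = 0.601).

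Mmrn1 was at 9832, 10360 and 11247 CPM in chronic RA. In chronic CS it was at 6259 CPM in M1 and 6701 CPM in M2, and at 9263, 9689 and 10588 CPM in F, M3 and M4 (log2 fold change -0.30, 95% interval -0.74 to 0.14, edgeR adjusted p = 0.598). Fgl2 held between 1432 and 1550 CPM in the 3 chronic RA libraries, whereas chronic CS gave 776 CPM in M1, 887 in M2, 1788 in F, 1999 in M4 and 2390 in M3. The 5 smoke libraries of Fgl2 thus fell on both sides of the controls with none between them. Their coefficient of variation was 45.1% against 4.45% in chronic RA, and the fitted log2 fold change was 0.09 (95% interval -0.68 to 0.86).

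Klhl4 showed the same 2 libraries apart. It was at 267, 281 and 336 CPM in chronic RA, at 122 CPM in M1 and 130 CPM in M2, and at 294, 322 and 335 CPM in F, M3 and M4 of chronic CS, for a log2 fold change of -0.29 (95% interval -1.08 to 0.49). Maf was at 182, 208 and 216 CPM in chronic RA and at 401 CPM in M1, 305 in M2, 235 in M3, 224 in F and 178 in M4. Here M1 and M2 were the highest of the group and not the lowest, and the log2 fold change was 0.41 (95% interval -0.23 to 1.05, edgeR adjusted p = 0.631). Among chronic CS libraries M1 and M2 therefore had the lowest levels of Reln, Mmrn1, Fgl2 and Klhl4 and the highest of Maf, while for Thy1 they were the highest and the third of 5.

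The libraries M1 and M2 had 21596654 and 22885446 counts, and chronic CS F had 18821438. Their summed lymphatic identity genes were the lowest of the group, at 10147 and 9866 CPM against 11534 to 12618 CPM, and their sums of blood endothelial markers (3897 and 3515 CPM against 3006 to 3221 CPM), fibroblast markers (279 and 252 CPM against 163 to 217 CPM) and erythroid markers (206 and 349 CPM against 9.69 to 67.7 CPM) were the highest. In chronic RA the blood endothelial sum was 3488 to 3586 CPM, the fibroblast sum 104 to 143 CPM and the erythroid sum 196 to 432 CPM. The erythroid sums of M1 and M2 and the blood endothelial sum of M2 thus lay within the range of the controls. Of the blood endothelial sum Plvap made up 2753 CPM in M1 and 1883 CPM in M2. The macrophage sum did not separate them, being 2393 CPM in M3 and 944 CPM in F. Neither did the mural sum, which was the lowest of chronic CS in M1 (73.6 CPM) and the highest in M2 (153 CPM). Any part of these values in the levels of Fgl2, Klhl4, Mmrn1 and Maf was not tested. Restricting chronic CS by depth to F, M1 and M2 gave log2 fold changes of -0.68 for Klhl4, -0.34 for Fgl2, -0.48 for Mmrn1 and 0.63 for Maf. Restricting it to M3 and M4 gave 0.16, 0.57, -0.05 and 0.03 in the same order, with none called.

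**Figure D4:**
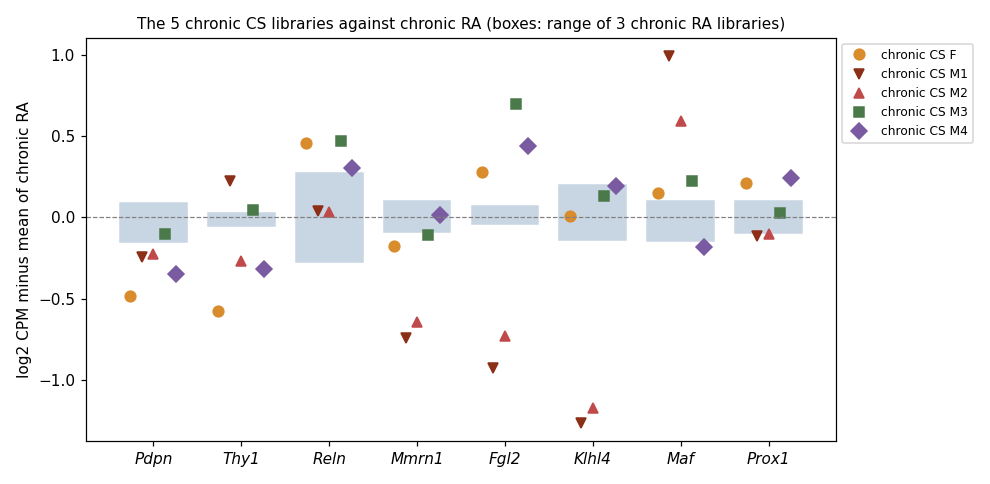
Difference of each chronic CS library from the mean of chronic RA, in log2 CPM (vertical axis), for the 7 genes and Prox1; boxes span the 3 chronic RA libraries. For Mmrn1, Fgl2 and Klhl4 the libraries M1 and M2 lie below the box, and for Maf above it. Also below it are F and M3 for Mmrn1, and also above it are F and M3 for Maf and F, M3 and M4 for Fgl2.

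The chronic RA and acute RA libraries were then set against each other. Both age and the pooling of mice differ between them. None of the 7 genes was called, nor was any gene tested (0.0%), with 1504 genes under an unadjusted p of 0.05 and 253 called by DESeq2, none of the 7 among them. Pdpn, Reln, Mmrn1, Fgl2 and Klhl4 were higher in all 3 chronic RA libraries than in both acute RA libraries, Maf was lower in all 3, and Thy1 overlapped, so that 6 of 7 did not overlap where 34.7% of all genes did not. Pdpn had a mean of 245 ± 21.6 CPM (SD, n = 3) in the later controls, where the earlier ones had 170 ± 2.90 CPM (SD, n = 2), with a log2 difference of 0.53 (95% interval 0.13 to 0.92, edgeR adjusted p = 0.607). The log2 differences of Fgl2, Mmrn1, Reln and Klhl4 were 0.69, 0.51, 0.40 and 0.26, and those of Maf and Thy1 were -0.60 and -0.08, with every 95% interval including 0. In a fit of the room air libraries alone Fgl2 passed (edgeR adjusted p = 0.0486), as 1 of 42 genes called.

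The controls were also compared relative to Prox1. Mmrn1 amounted to 310% and 313% of the Prox1 count in acute RA and to 465.8% to 575.8% in chronic RA. Fgl2 amounted to 38.7% and 39.0% in acute RA and to 68.3% to 79.4% in chronic RA. Pdpn, Reln and Klhl4 were likewise above all acute RA values, whereas Thy1 and Maf overlapped, and 32.2% of all genes were above in this sense.

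Whether the effect of smoke differed between the time points was tested as the acute minus the chronic log2 fold change. All 7 differences were negative, with a median of -0.78 against 0.04 over all genes, and none passed the adjusted limit, which 0.452% of genes did. Unadjusted p was under 0.05 for 4 of them and for 2548 of all genes. Reln, lower in acute CS and higher in chronic CS by fitted level, had a difference of -1.07 (95% interval -1.71 to -0.43, edgeR adjusted p = 0.149), and DESeq2 called it (adjusted p = 0.00837) among 920 genes. Maf had -1.41 (edgeR adjusted p = 0.277), Thy1 -0.98 (edgeR adjusted p = 0.341) and Mmrn1 -0.78 (edgeR adjusted p = 0.402). Klhl4, Fgl2 and Pdpn had -0.71, -0.47 and -0.41 with intervals that included 0. Leaving out single libraries gave ranges of -1.36 to -0.26 for Klhl4, -1.04 to -0.06 for Fgl2, -0.77 to -0.12 for Pdpn, -1.22 to -0.44 for Mmrn1, -1.39 to -0.81 for Reln, -1.47 to -0.61 for Thy1 and -2.03 to -0.97 for Maf, with none called. Prox1 passed, with a difference of -1.09 (edgeR adjusted p = 0.0406). The 97 calls over all genes behind these shares became 0 without acute RA F, without acute RA M or without chronic RA M2.

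Genes that act with each of the 7 were counted from lists chosen for function. In acute CS, 2 of the 11 partners of podoplanin and enzymes of its glycosylation rose and none fell. Those were the hyaluronan receptor Cd44, from 9.21 to 12.5 CPM in acute RA to 142 to 198 CPM (log2 fold change 3.97, edgeR adjusted p = 0.0125), and the cytoskeletal linker Ezr (2.19, edgeR adjusted p = 0.0184). Cd9 and Msn, the most abundant of the list, changed by 0.48 and 0.38 without passing. Leukocytes express Cd44 strongly and epithelia Ezr, and markers of both are given above. What such cells contributed to the levels of Cd44 and Ezr was not tested.

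Of 13 reelin receptors, adaptors and proteases 11 were tested, and only Dab2 was called. Dab2, an endocytic adaptor, fell from 587 and 614 CPM in acute RA to 324 and 369 CPM in acute CS (log2 fold change -0.80, edgeR adjusted p = 0.00797). The integrin subunit Itgb1 changed by -0.03. The canonical neuronal adaptor Dab1 was at 0 in 11 of 12 libraries and Adamts3, a reelin-cleaving protease, in 7, and neither was tested. Among 7 genes of the multimerin family and ligands, Clec14a and Cd93, which encode endothelial receptors of multimerin 2, rose in acute CS with log2 fold changes of 2.89 and 2.70 (edgeR adjusted p = 0.00166 and 0.00784). Clec14a was at 139 to 168 CPM in acute RA and 888 to 1390 CPM in acute CS, and its effect differed between time points (difference 2.73, edgeR adjusted p = 0.0142). Cd93 is also in the blood endothelial list. Mmrn2 and Emilin1, relatives of Mmrn1, changed by -0.42 and -0.85 and were not called.

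Of 7 fibrinogen family genes and Fgl2 receptors 3 were tested. The inhibitory Fc receptor gene Fcgr2b, whose product binds Fgl2, rose from 1.59 and 1.65 CPM in acute RA to 14.8 and 20.9 CPM in acute CS (log2 fold change 3.46, edgeR adjusted p = 0.0208). In chronic RA it was at 11.1, 11.9 and 17.5 CPM. Fcgr3 changed by 2.72 in acute CS (edgeR adjusted p = 0.103). The fibrinogen chain gene Fgb was at 0 in all 12 libraries and Fga and Fgg in 10. Of 8 counter-receptors of Thy1, 3 rose, namely the leukocyte integrin genes Itgax and Itgb2 (log2 fold changes 6.43 and 3.98, edgeR adjusted p = 0.0154 and 0.00886) and Adgre5 (2.64, edgeR adjusted p = 0.0127), a leukocyte adhesion receptor. Itga5, an integrin subunit that endothelium also uses, changed by -0.22 (edgeR adjusted p = 0.433).

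Klhl5, a close relative of Klhl4, rose from 68.3 and 75.4 CPM in acute RA to 241 and 361 CPM in acute CS (log2 fold change 2.07, edgeR adjusted p = 0.00339), and its effect differed between time points (difference 1.66, edgeR adjusted p = 0.0406). Rbx1, a subunit of the cullin ligase, changed by 0.16, and Klhl1 was at 0 in all 12 libraries. Of 10 Maf and AP-1 family genes 9 were tested and only Fos was called, lower in acute CS (3413 and 5310 CPM in acute RA, 1739 and 1790 CPM in acute CS, log2 fold change -1.31, edgeR adjusted p = 0.0192). Jun, its dimer partner, changed by -0.51 (edgeR adjusted p = 0.444), and the retinal factor Nrl was at 0 in all libraries. In the chronic comparison and between the room air controls no gene of any of these lists was called, and neither was any gene tested (0.0%).

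Across the 12 libraries the 7 genes varied in part together, which is given as a description over libraries that share group and depth. The highest Pearson correlations of log2 CPM were 0.90 for Pdpn and Mmrn1, 0.89 for Mmrn1 and Klhl4 and 0.89 for Fgl2 and Klhl4, and the lowest were 0.05 for Fgl2 and Maf and 0.14 for Klhl4 and Maf. Fgl2 and Reln, the neighbours on chromosome 5, had 0.82. The 5 genes most like each were taken from 9845 genes with a mean of at least 10 CPM. For Pdpn they were Col23a1, P3h3, Apba2, Npr2 and Adgrg3 (0.94 to 0.96), and P3h3 also led the list for Thy1 (0.92), followed by Sh3glb2, Triobp, Rhod and Prkcq. Mmrn1 varied most like Flt4 (0.98), then Pear1, Cp, Rab3il1 and Susd2. Reln was most like Dapk2, Tanc2, Flywch1, Ift43 and Ston2 (0.93 to 0.95), and Fgl2 most like Tnfaip8l3, Dtx1, Pard6g, Htr2b and Zfp521 (0.93 to 0.97). For Klhl4 the genes were Sh3bgrl2, Adam10, Ppfibp1, Pros1 and Ecm2 (0.97 to 0.98), and for Maf they were Lztfl1, Gm49342, Trf, Tcf4 and Mxd4 (0.90 to 0.96). The highest correlation of Maf with another of the 7 genes was 0.64, with Thy1.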

How the data were processed

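RNA-seq of 12 libraries was analysed. As deposited, the values are raw read counts by Ensembl identifier, made by the authors with FastQC 0.11.9, adapter trimming by Skewer, filtering by Minion, alignment to GRCm38 with STAR and its GeneCounts mode. The STAR version, annotation release and strand setting are not given in the sources used here. Groups came from the labels, and names, positions and exon lengths from GENCODE M21, in which 52489 of 52636 identifiers were found.

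Counts were fitted in R 4.3.3 with edgeR 4.0.16 (filter by expression, TMM factors, quasi-likelihood F-test, all 12 libraries by group), and p-values were adjusted over 21440 genes after Benjamini and Hochberg with a limit of 0.05. DESeq2 1.42.0 was an alternative. Intervals of 95% used the standard errors and degrees of freedom of the fit. Single libraries were compared with exact permutation tests on log2 CPM (prior count 2), and FPKM used the union of exons. The procedure was tested on simulated data. A floor of 3 counts corresponds to 0.0526 to 0.159 CPM, for counting error only. The labels do not tie the acute pools to separate cohorts, and p-values measure the spread between these libraries, which may be technical. No pair of libraries within a group agreed within sampling noise. Replicate labels did not pair the libraries. The 7 genes and all lists were chosen with earlier results of these data known. All 7 are named in each comparison, with called or else the 2 most abundant genes of each functional list, the 5 most correlated genes and the first 2 of each marker list. Motifs and printed promoters were chosen after the data were seen. The authors' figures, cell culture and staining were not analysed here.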

Additional observations from a re-analysis of the deposited data

How the results depend on the processing

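In the acute comparison none of the 7 genes was called by edgeR. The count was 1 with library size in place of TMM (Mmrn1, 720 of all genes called), 2 without a filter on low counts (Mmrn1 and Thy1, 880 of all genes), 2 with sex as a covariate (Pdpn and Thy1, 651 of all genes) and 4 with DESeq2 (1961 of all genes). Leaving out single libraries gave 0 to 4, the latter without acute CS M, while the calls over all genes went from 745 to between 3 (without acute RA M) and 858 (without acute CS M). Fgl2 passed between the room air controls in a fit of those groups only (1 gene), and Reln passed for the acute minus the chronic effect with DESeq2 (1 gene). The cause was not tested. None of the 7 genes was called in the chronic comparison under any alternative run.

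Scaling to Prox1 moved the median of all genes to 1.08 (acute), 0.25 (room air) and 1.13 (acute minus chronic), and a turned sign of a smaller negative value follows from that shift alone. The acute changes became 0.32 for Pdpn, 0.21 for Reln and 0.62 for Fgl2, the chronic change of Fgl2 became -0.003, and Thy1 between the room air controls became 0.20. The acute minus chronic effects became 0.65 (Pdpn), 0.017 (Reln), 0.31 (Mmrn1), 0.62 (Fgl2), 0.069 (Thy1) and 0.38 (Klhl4). With chronic CS F, M1 and M2 only, Fgl2 changed by -0.34, and with M3 and M4 only, Klhl4 changed by 0.16. Leaving out single libraries gave -1.65 to -0.55 for Klhl4, -1.63 to -0.56 for Maf, -1.62 to -0.76 for Thy1, -1.52 to -0.74 for Mmrn1, -1.13 to -0.55 for Reln, -1.05 to -0.40 for Pdpn and -0.96 to 0.029 for Fgl2 in the acute comparison, where the lowest value was without acute CS M and the highest without acute CS F. In the chronic comparison it gave -0.11 to 0.28 for Fgl2, -0.44 to -0.11 for Klhl4, -0.24 to -0.06 for Thy1, 0.14 to 0.41 for Reln, 0.24 to 0.53 for Maf, -0.39 to -0.19 for Mmrn1 and -0.34 to -0.23 for Pdpn. Between the room air controls it gave -0.36 to 0.26 for Thy1, -0.92 to -0.23 for Maf, 0.24 to 0.52 for Reln and 0.14 to 0.31 for Klhl4, and the other 3 genes stayed between 0.44 and 0.75.

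Libraries with the same sex and number did not deviate together (correlations -0.042 to 0.069). With these as a replicate block, Fgl2, Klhl4 and Mmrn1 changed by -0.46, -0.82 and -0.52 in the chronic comparison, the acute minus the chronic effect was 0.001 for Fgl2 and -0.29 for Klhl4, none of the 7 genes was called in any comparison, and the acute calls over all genes went from 745 to 73.

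The acute comparison rests on 2 pooled libraries per group, and 4 genes passed without acute CS M where none passed without acute CS F, in fits that take the spread from the other groups. Depth did not limit detection, since the smallest count of any of the 7 genes was 1767 reads.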
